A study of Rattus norvegicus with 4 samples.

Results

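The genes of the TGF-beta and BMP pathways were examined in OLN93 cells, a spontaneously immortalized rat line of the oligodendroglial lineage, after inactivation of the transcription factor gene Sox10. Members were taken by symbol. They were all symbols that begin with Tgfb, Bmp, Smad, Acvr, Inhb, Gdf or Ltbp, together with Nog, Grem1, Chrd, Fst and Eng. This rule found 62 symbols, of which 59 are listed among the 17327 symbols of the deposited counts and 3 (Bmp8b, Gdf5 and Tgfbr3l) only in a table of the authors that pools all libraries. The groups were 2 libraries of Sox10-positive control cells and 2 libraries of Sox10-deficient cells, clones A and B, each of which is a single clone edited by CRISPR/Cas9 with its own guide RNA. All cells were grown in medium with fetal calf serum, and polyadenylated RNA was sequenced as stranded libraries. The labels call the controls biological replicates and the study calls them clones. With 2 libraries a group, p-values measure only the spread between these libraries.

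TGF-betas, activins, BMPs and GDFs are secreted dimers of one ligand superfamily. They bind pairs of type I and type II receptor kinases, which phosphorylate receptor Smads. Smad2 and Smad3 carry TGF-beta and activin signals, whereas Smad1, Smad5 and Smad9 carry BMP signals, and both branches share Smad4. TGF-betas are secreted in a latent form that latent TGF-beta binding proteins tether to the extracellular matrix, and integrins and thrombospondin can release the active ligand. In the oligodendroglial lineage, BMP signals are known to hold back differentiation, and TGF-beta and activin signals are known to act on precursor proliferation and maturation.

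The deposited libraries are shallow, with totals between 60951 and 104017 counts, so that few members could be tested. At this depth, 3 counts in a library, taken as the floor, correspond to between 29.1 and 48.0 normalized CPM (counts scaled to a common library size), and this floor covers counting error only. Of the 59 members, 27 had no count in any library, 11 had between 1 and 9 counts over the 4 libraries and 21 had at least 10. The filter on low counts left 10 members for testing (the quasi-likelihood test of edgeR, with p-values adjusted over 2438 genes by the Benjamini-Hochberg method). Sox10 itself had 28 and 64 counts in controls 1 and 2, 0 in clone A and 14 in clone B, so that the library of clone B still held reads counted to the targeted gene. The oligodendrocyte precursor markers Pdgfra, Cspg4 and Ptprz1 had between 16 and 58 counts in every library. In contrast, Olig1 had 12 and 1 counts in controls 1 and 2 and 0 in both clones, and Gpr17 had 4 counts in all. Olig2 had 7 counts in control 1 and 0 in every other library, at an authors' mean of 0. Of 8 genes of myelinating oligodendrocytes, Mag, Mobp and Mal were at 0 in all libraries and Mbp had 2 counts in clone A alone, whereas Cnp had 62, 68, 35 and 20 counts, Myrf between 6 and 12, and Mog between 11 and 18 at an authors' mean of 0. The endothelial genes Pecam1, Cdh5 and Kdr were at 0.

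Tgfb2, which encodes one of the 3 TGF-beta ligands, was detected in both controls and in neither clone. Fst, which encodes the activin antagonist follistatin, and Ltbp1, which encodes the latent TGF-beta binding protein 1, were higher in both clones than in both controls. Receptors and Smads that could be tested showed no call. In bulk RNA, fewer expressing cells and less RNA per cell cannot be told apart.

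The promoter windows of Tgfb2 and Ltbp1 are shown because these members moved in opposite directions, and no window was found for Fst. Each window runs from 250 bases before to 50 bases after the annotated start and is taken from RefSeq on the rat assembly GRCr8, a later build than the one used for the counts. The Tgfb2 window lies at chr13:100792636-100792935 on the minus strand, and the Ltbp1 window at chr6:26177252-26177551 on the minus strand. Capitals mark matches on either strand to ACAAAG or ACAATG (cores of Sox protein motifs), CAGAC (a Smad-binding box) or GGCGCC (a GC-rich Smad motif).
Tgfb2: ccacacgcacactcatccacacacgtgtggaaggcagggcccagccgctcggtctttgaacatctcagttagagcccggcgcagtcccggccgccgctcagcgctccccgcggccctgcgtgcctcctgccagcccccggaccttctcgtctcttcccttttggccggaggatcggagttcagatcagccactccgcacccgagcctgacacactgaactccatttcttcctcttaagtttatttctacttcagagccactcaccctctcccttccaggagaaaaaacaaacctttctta
Ltbp1: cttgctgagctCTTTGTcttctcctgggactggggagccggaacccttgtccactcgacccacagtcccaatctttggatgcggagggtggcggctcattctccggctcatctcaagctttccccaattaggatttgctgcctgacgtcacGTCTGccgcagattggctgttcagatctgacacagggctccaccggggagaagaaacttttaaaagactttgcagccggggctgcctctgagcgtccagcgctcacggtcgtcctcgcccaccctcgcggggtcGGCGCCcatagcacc

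The Tgfb2 window held none of these letter strings, and neither did the windows of Tgfb1 and Tgfb3. The Ltbp1 window held 1 match to ACAAAG near its start, 1 match to CAGAC, and 1 match to GGCGCC downstream of both. These matches do not overlap. Among 33469 RefSeq promoter windows of the same length, 18.8% held ACAAAG, 13.2% ACAATG, 50.1% CAGAC and 11.02% GGCGCC on either strand. Promoter windows were found for 51 members, with several windows each for Bmp8b, Gdf15, Smad2 and Tgfbrap1. Counted by window and not by member, 12 held ACAAAG, 2 ACAATG, 22 CAGAC and 18 GGCGCC. A match is a string of letters and not a bound site, and a window without one says nothing on regulation from elsewhere.

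Among the ligands, Tgfb2 (ENSRNOG00000002418) had 3 and 16 counts in controls 1 and 2 and none in either clone. In CPM its level was 48.0 in control 1 and 155 in control 2. It was thus at least 2.95-fold lower in the clones against a floor of 3 counts per library, a limit that was 1.39-fold without control 2 and 4.51-fold without control 1. Tgfb2 missed the filter, and with no filter at all its adjusted p in edgeR was 0.0141. With 1 library left out, it entered the test except without control 2, at unadjusted p values between 0.0234 and 0.0484 and adjusted p values from 0.275 up. Tgfb3 (ENSRNOG00000009867), another of the TGF-beta ligands, had the same counts as Tgfb2 in the controls, 3 and 16, but 8 and 11 counts in clones A and B. Its CPM was 48.0 and 155 in the controls against 92.9 and 125 in the clones, so that the groups overlapped (log2 fold change -0.00041, with a standard error, SE, of 0.70). Tgfb1 (ENSRNOG00000020652), which encodes the most widely expressed TGF-beta, had 8 and 16 counts in controls 1 and 2 against 17 and 29 in clones A and B. Its CPM of 128 and 155 in the controls lay below the 197 and 328 of the clones, with a log2 fold change of 0.86 (SE 0.46, unadjusted p = 0.0745 and edgeR adjusted p = 0.413). The difference did not pass the test, although without clone A the log2 fold change was 1.19 with an unadjusted p of 0.0384 and an adjusted p of 0.484 in edgeR. The ratio of its pooled counts was 1.82 with an exact 95% binomial interval from 1.09 to 3.12, which covers counting error only. Summed over the 3 TGF-beta ligands, the level was 224 and 465 CPM in the controls against 290 and 453 CPM in the clones, and the groups overlapped.

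**Figure D1:**
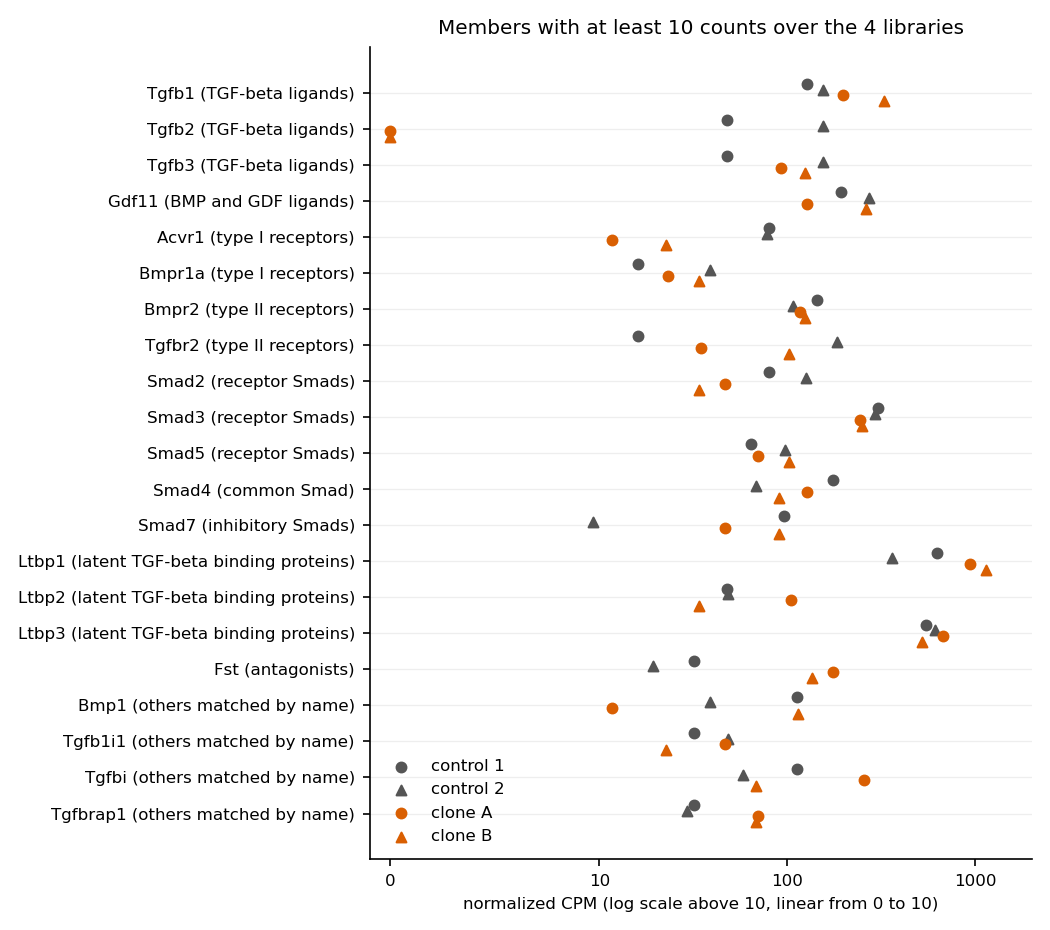
Normalized CPM of the 21 members with at least 10 counts over the 4 libraries (x axis, logarithmic above 10 and linear from 0 to 10), grouped by role, with circles for control 1 and clone A and triangles for control 2 and clone B. Tgfb2 lies at 0 in both clones, and Ltbp1 and Fst lie higher in both clones than in both controls.

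BMP and GDF ligands were at or near 0. Of 18 such genes in the counts, 15 had no count in any library, among them Bmp2, Bmp5 and Bmp7. Bmp4 had 1 count and Bmp6 had 2, all in control 1. The authors' mean normalized read count over the deeper libraries is 0 for Bmp2, Bmp3, Bmp5 and Bmp10, 1 for Bmp4, 3 for Bmp6 and 29 for Bmp7. Gdf1 had no deposited count at an authors' mean of 140. Gdf11 (ENSRNOG00000007610), a relative of myostatin that signals through activin receptors, was the exception with 12 and 28 counts in the controls against 11 and 23 in clones A and B. Its groups overlapped, with a log2 fold change of -0.28 (SE 0.46). The deposited counts of Gdf11 were 8.42 times what its authors' mean of 572 and the median gene predict, and Cd63, the gene nearest to it on GRCr8, had 22, 40, 28 and 31 counts in the same order of libraries. The part of neighbouring reads in the Gdf11 counts was not tested. Among the activin and inhibin beta subunits, Inhba, Inhbb and Inhbc had no count. Inhbe had 0 and 1 counts in controls 1 and 2 against 4 and 2 in the clones, at 32.6 times the count predicted from its authors' mean of 14. Its pooled ratio of 5.70 had an exact 95% binomial interval from 0.69 to 262, which is too wide to resolve a difference.

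The type II receptors showed no difference that the libraries could resolve. Bmpr2 (ENSRNOG00000022196), the BMP type II receptor, had 9 and 11 counts in controls 1 and 2 against 10 and 11 in clones A and B. Its levels of 125 ± 26.3 CPM in the controls and 120 ± 5.95 CPM in the clones (SD, n = 2 each) overlapped, with a log2 fold change of -0.03 (SE 0.60). Tgfbr2, the TGF-beta type II receptor, had 1 and 19 counts in controls 1 and 2 against 3 and 9 in the clones. The controls of Tgfbr2 thus lay on either side of the clones, and the pooled ratio was 0.57 with an exact 95% binomial interval from 0.25 to 1.22. Acvr2a had between 1 and 3 counts in every library and Acvr2b had none.

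Of the type I receptors, Acvr1 (ENSRNOG00000005033), which encodes the BMP receptor ALK2, had the clearest contrast. It had 5 and 8 counts in the controls, or 79.9 and 77.5 CPM, compared with 1 and 2 counts in clones A and B, or 11.6 and 22.6 CPM. Both clones lay below both controls, and the pooled ratio was 0.22 with an exact 95% binomial interval from 0.040 to 0.80 for counting error. Acvr1 missed the filter, and without it the log2 fold change was -2.08 with an unadjusted p of 0.060 and an adjusted p of 0.744 in edgeR. Bmpr1a, a BMP type I receptor, had 1 and 4 counts in controls 1 and 2 against 2 and 3 in the clones. Tgfbr1, the TGF-beta type I receptor, had 4 counts in all. Summed over the 7 type I receptors, the level was 95.9 and 126 CPM in the controls against 69.7 and 67.9 CPM in the clones. Acvr1 carried this difference, since the ratio of clones over controls was 0.62 with it and 1.60 without it. The co-receptors were at the limit of detection, with 2 counts for Eng in control 2 and none for Tgfbr3.

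**Figure D2:**
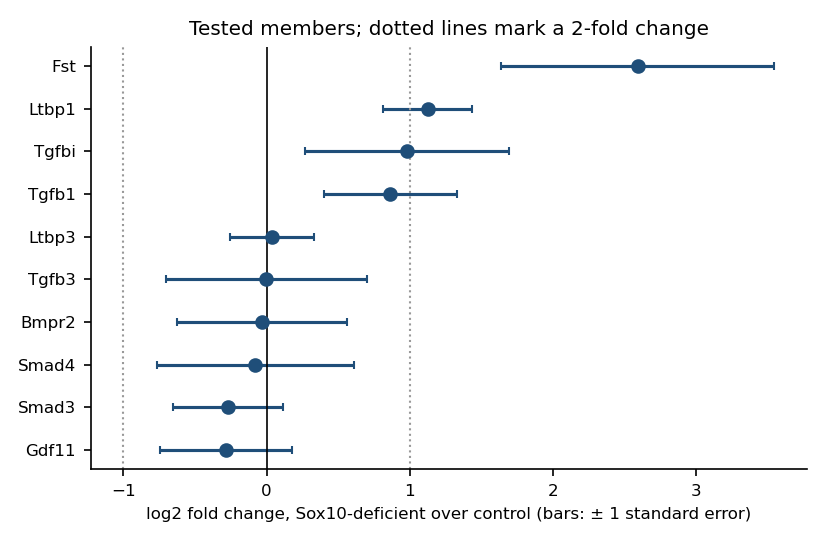
Log2 fold change, Sox10-deficient over control, of the 10 tested members (points) with 1 SE to either side (bars), and dotted lines at a 2-fold change. Fst at 2.59 and Ltbp1 at 1.12 lie beyond 2-fold, and the other 8 lie within it.

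All Smads but Smad9 had counts in both groups. Smad3 (ENSRNOG00000008620) was the Smad with the most counts, 19 and 30 in the controls against 21 and 22 in clones A and B. Its CPM of 304 and 291 in the controls lay above the 244 and 249 of the clones, but the log2 fold change of -0.27 (SE 0.38, edgeR adjusted p = 0.844) did not pass the test. Smad2 (ENSRNOG00000018140), the other Smad of the TGF-beta branch, had 5 and 13 counts in controls 1 and 2 against 4 and 3 in clones A and B. The CPM of Smad2 was 79.9 and 126 in the controls against 46.5 and 34.0 in the clones. The groups did not overlap, and the pooled ratio of 0.37 had an exact 95% binomial interval from 0.13 to 0.93 for counting error. Without the filter, its log2 fold change was -1.35 with an unadjusted p of 0.109 and an adjusted p of 0.864 in edgeR. In the BMP branch, Smad5 had 4 and 10 counts in controls 1 and 2 against 6 and 9 in the clones, and Smad1 had 2 and 4 against 1 and 1. Smad5 overlapped between the groups, and Smad1 was too low for a statement. Smad9 had no count in either control but 5 and 3 in clones A and B, or at least 1.19-fold higher, a limit that was 0.88 without clone A and 0.96 without control 2. However, the authors' mean for Smad9 is 2, and its deposited counts were 260 times the number predicted from this mean. Whether these reads come from Smad9 was not tested. The shared Smad4 had 11 and 7 counts in controls 1 and 2 against 11 and 8 in clones A and B, with a log2 fold change of -0.08 (SE 0.68). Smad7, an inhibitory Smad that TGF-beta itself induces, had 6 and 1 counts in controls 1 and 2 against 4 and 8 in the clones, with overlap. Summed over the 5 receptor Smads, the level was 480 and 553 CPM in the controls against 430 and 430 CPM in the clones, a ratio of 0.83. The sum includes the uncertain Smad9 reads, at 0 CPM in the controls and 58.1 and 34.0 CPM in clones A and B.

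The latent TGF-beta binding proteins held the largest share of the members' counts. Ltbp1 (ENSRNOG00000033090) had 39 and 37 counts in controls 1 and 2 against 81 and 101 in clones A and B. This corresponded to 623 and 359 CPM in the controls against 941 and 1144 CPM in the clones, so that each clone lay above each control. The log2 fold change was 1.12 (SE 0.31, unadjusted p = 0.00188 and edgeR adjusted p = 0.0505), a 2.18-fold difference. It met the unadjusted and narrowly missed the adjusted criterion. The log2 fold change was under 1 without control 2, at 0.71 with an unadjusted p of 0.0794, and it was 0.97 both without clone B and in DESeq2 with a prior. Over 11 alternatives the adjusted p in edgeR or DESeq2 ranged from 0.00308, without control 1, to 0.546, without control 2. Ltbp3 (ENSRNOG00000020813), which binds latent TGF-beta in the same manner, had 34 and 63 counts in controls 1 and 2 against 58 and 46 in clones A and B. The levels of 544 and 611 CPM in the controls against 674 and 521 CPM in the clones overlapped, with a log2 fold change of 0.04 (SE 0.29). Ltbp2 had 3 and 5 counts in controls 1 and 2 against 9 and 3 in the clones, and Ltbp4 had 7 counts in all. Both overlapped between the groups. The sum of the 4 genes was 1279 and 1018 CPM in the controls against 1731 and 1721 CPM in the clones, with a ratio of 1.50 that was 1.04 without Ltbp1. Ltbp3 had 3.55 times and Ltbp1 1.00 times the counts predicted from their authors' means.

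Of the antagonists, only Fst had counts. Fst (ENSRNOG00000011631) had 2 counts in each control and 15 and 12 in clones A and B. Its CPM was 32.0 and 19.4 for the controls against 174 and 136 for the clones. Both clones lay above both controls. The log2 fold change was 2.59 (SE 0.95, unadjusted p = 0.00735 and edgeR adjusted p = 0.115), and the pooled ratio of 6.41 had an exact 95% binomial interval from 2.23 to 25.2 for counting error. The call needed both clones, since leaving out clone A gave an unadjusted p of 0.186 (log2 fold change 2.40) and leaving out clone B one of 0.0782 (log2 fold change 2.74). Over 10 alternatives the adjusted p in edgeR or DESeq2 ranged from 0.111 to 0.847. Nog, Grem1, Chrd and Bmper, which encode secreted regulators of BMPs, had no count in any library, and their authors' means are between 0 and 5.

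The symbol rule also takes in genes that are not signalling components. Tgfbi, a matrix protein induced by TGF-beta, had 7 and 6 counts in controls 1 and 2 against 22 and 6 in clones A and B. Clone A alone was high, and the log2 fold change of 0.98 (SE 0.71) did not pass the test. Without clone B its value was 1.63 (unadjusted p = 0.0347, edgeR adjusted p = 0.436), and with clone A left out instead it was -0.26. Bmp1, a procollagen protease, had 7 and 4 counts in controls 1 and 2 against 1 and 10 in the clones. Tgfbrap1 had 2 and 3 counts in the controls against 6 in each clone, and Tgfb1i1 had 2 and 5 against 4 and 2.

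Of the 10 tested members, Fst and Ltbp1, or 2 members, were at least 2-fold higher at an unadjusted p up to 0.05, where 4.63% of all tested genes met this criterion. No tested member was at least 2-fold lower, against 6.97% of all tested genes, although Tgfb2 was not among the tested. After adjustment 0 members were called in either direction by edgeR, where 1.11% of all tested genes were called higher and 2.5% lower. DESeq2 without a prior likewise called 0 after adjustment and 2 by the unadjusted p. The libraries of both groups did not overlap for 4 tested members, Tgfb1, Smad3, Fst and Ltbp1, against 43% of all tested genes. The median log2 fold change of the 10 members was 0.02, beside -0.01 for all tested genes. Members passed the filter partly through the group in which they are high, so these counts describe the tested members only.

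A list of 75 other genes of the pathway, 66 of them in the counts and 23 tested, was set beside the members. By the unadjusted criterion 4 of the 23 were lower and 2 were higher, and by the adjusted p 3 were lower and 1 was higher. Their median log2 fold change was 0.14, with 13 above 0. Among genes that release TGF-beta from its latent form, Thbs1 (thrombospondin 1) fell from 64 and 88 counts in the controls to 14 and 24 in clones A and B. This was a log2 fold change of -2.10 (SE 0.34, edgeR adjusted p = 0.00107). Itgb8, the integrin subunit of a TGF-beta-activating integrin, fell from 23 and 35 counts to 2 and 6, with a log2 fold change of -2.91 (SE 0.61, edgeR adjusted p = 0.00416). Fbn1, the microfibril protein fibrillin 1 to which latent TGF-beta binding proteins attach, rose from 15 and 35 counts to 69 and 74. Its log2 fold change was 1.46 (SE 0.32, edgeR adjusted p = 0.0119). The transcription factor Zeb2, which binds Smads, fell from 35 and 49 counts to 17 and 19 (log2 fold change -1.31, SE 0.36, edgeR adjusted p = 0.0477). Chrdl1, a BMP antagonist, had 20 and 14 counts in controls 1 and 2 against 7 and 6 in the clones and met only the unadjusted criterion (log2 fold change -1.53, edgeR adjusted p = 0.222). The cell cycle inhibitor Cdkn1a had 4 and 7 counts against 20 and 21 and also met only that criterion (log2 fold change 1.80, edgeR adjusted p = 0.0922). Without control 2, no gene in the table passed the adjusted criterion, and the adjusted p of Thbs1, Itgb8, Fbn1 and Zeb2 was between 0.386 and 0.497 in edgeR, with unadjusted p values of 0.00285 to 0.00982. Zeb2 also lost the adjusted call, but kept its direction, when any other library was left out, whereas the other three kept it. The adjusted p of Zeb2 was also 0.0516 with DESeq2 size factors, 0.0946 without the filter, 0.0585 with at least 10 counts in every library, 0.114 with the replicate block and 0.411 in DESeq2. That of Fbn1 was 0.0879 in DESeq2, and that of Itgb8 was 0.0539 with the replicate block in edgeR.

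**Figure D3:**
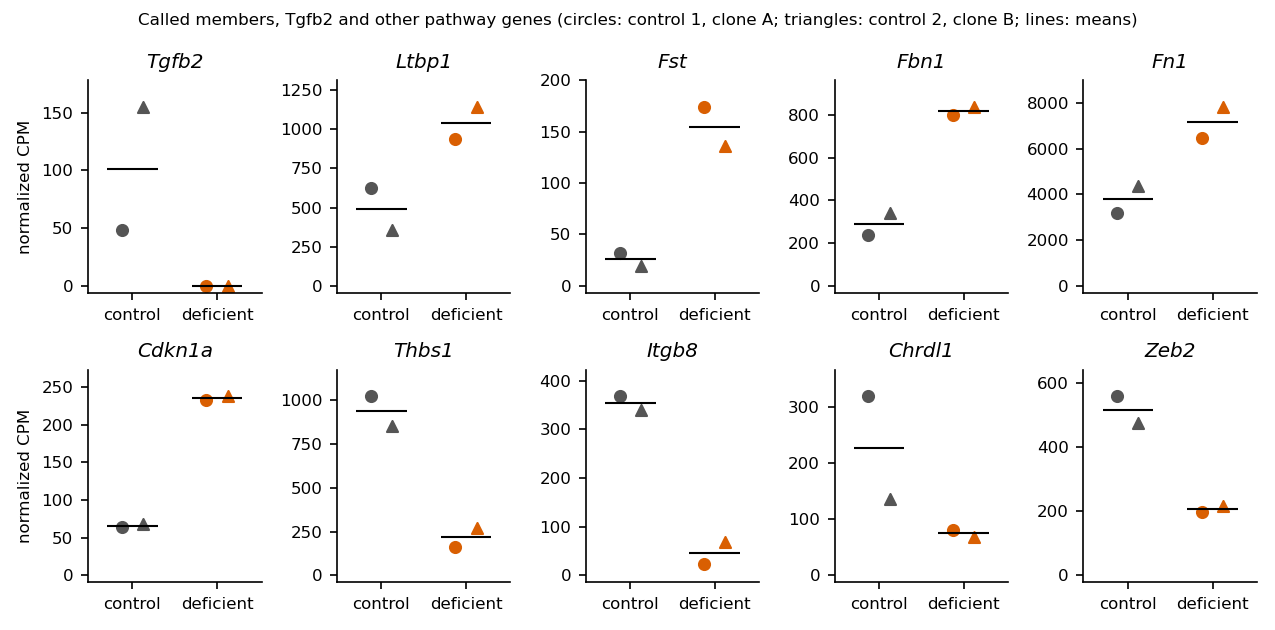
Normalized CPM (y axis, linear from 0, own scale in each panel) in controls and Sox10-deficient clones for Tgfb2, the called members Ltbp1 and Fst, and other pathway genes, with lines at group means. Fbn1 lies at 240 and 339 CPM in the controls and at 801 and 838 CPM in the clones, and Thbs1 and Itgb8 lie lower in both clones than in both controls.

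The other 17 tested genes of that list had log2 fold changes between -0.93 for Tab2 and 0.92 for Zeb1 and were not called. Fn1 (fibronectin), the matrix protein with which Ltbp1 assembles in the matrix, had 198 and 452 counts in controls 1 and 2 against 557 and 691 in the clones. Its log2 fold change of 0.91 (SE 0.27, unadjusted p = 0.00319 and edgeR adjusted p = 0.0687) was under 2-fold. Ctgf, a target of TGF-beta signalling, had 26 and 51 counts against 21 and 26 (log2 fold change -0.77, unadjusted p = 0.0399, edgeR adjusted p = 0.303). The matrix proteoglycan Bgn (biglycan) had 94 and 122 counts against 195 and 143 (log2 fold change 0.54, edgeR adjusted p = 0.363). The remaining genes with at least 50 counts were Stub1, Fstl1, Col1a1, Runx2, Fkbp1a, Myc, Tsc22d1 and Smurf1, with log2 fold changes between -0.65 for Col1a1 and 0.69 for Tsc22d1. Among other TGF-beta targets, Pmepa1 had 9 and 32 counts against 4 and 19, and Junb had 3 in each control against 2 and 6. Neither was called. Targets of BMP signalling were too low to test. Id1 had 0 and 1 counts in controls 1 and 2 against 7 and 2 in the clones, Id2 had 0 and 4 against 4 and 4, Id3 had 4 and 3 against 3 and 6, and Id4 had 8 and 7 against 0 and 0. Their sum was thus 12 and 15 counts in the controls against 14 and 12 in the clones, or 192 and 145 CPM against 163 and 136 CPM. This sum joins opposite shifts. Id4 had counts in the controls alone, whereas Id1 and Id2 lay higher in both clones than in both controls in CPM.

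Markers of other cell types moved beside these matrix genes. The summed level of 7 fibroblast and mesenchymal genes was 3565 and 4808 CPM in the controls against 6795 and 8018 CPM in the clones. Fn1 made up most of it with 3165 and 4382 CPM against 6470 and 7825 CPM, whereas Col1a2, Dcn and Lum were at 0 in all libraries. Col1a1 had 336 and 330 CPM against 290 and 136 CPM (log2 fold change -0.65, not called), and Pdgfrb and Col3a1 had 12 and 10 counts in all. The 5 Schwann cell markers summed to 1151 and 1134 CPM in the controls and to 290 and 113 CPM in the clones. The 6 astrocyte markers summed to 32.0 and 77.5 CPM against 348 and 238 CPM. Of these, Sox9 held 0 and 19.4 CPM in the controls and 348 and 204 CPM in the clones, Aldoc and Gfap had 10 counts and 1 count in all, and Aqp4, Slc1a3 and Aldh1l1 were at 0. The 8 genes of myelinating oligodendrocytes summed to 1343 and 969 CPM against 685 and 419 CPM, and of them Cnp fell (log2 fold change -1.36, edgeR adjusted p = 0.0331). The 7 precursor markers, Sox10 included, summed to 1886 and 1503 CPM against 1243 and 1348 CPM. Of this, Sox10, the edited gene, held 448 and 620 CPM in the controls against 0 and 159 CPM in clones A and B. Pdgfra had a log2 fold change of 0.22 and Ptprz1 one of -0.48. Cspg4 had 256 and 301 CPM in controls 1 and 2 against 674 and 408 CPM in clones A and B. Its log2 fold change of 0.93 (unadjusted p = 0.0170 and edgeR adjusted p = 0.196) was under 2-fold. Pdgfra, Ptprz1 and Cspg4 were thus not called. Olig1, Olig2 and Gpr17 were too low to test. The part of these shifts in the levels of Ltbp1, Fst and Tgfb2 was not tested.

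The deposited counts are far fewer than the means in the authors' table, and the members show how evenly the counts follow those means. Some genes had deposited counts at a mean of 0 in that table, with Mog at 54, Olig2 at 7 and Lefty1 at 8 over the 4 libraries. Whether the counts are a sample of the data behind that table was not tested. For 5399 genes with an authors' mean of at least 500, the deposited count per library was 0.384% of that mean in the median gene. Fst had 0.83 times and Tgfb2 1.58 times the count so predicted. Gdf10 is not in that table. Of the other 26 members without a deposited count, which the table lists, 15 have a mean of 0 and 4 have a mean of 10 or more. For these 4 (Bmp7, Gdf1, Gdf15 and Inhba), a count of 0 does not show absence at this depth.

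**Figure D4:**
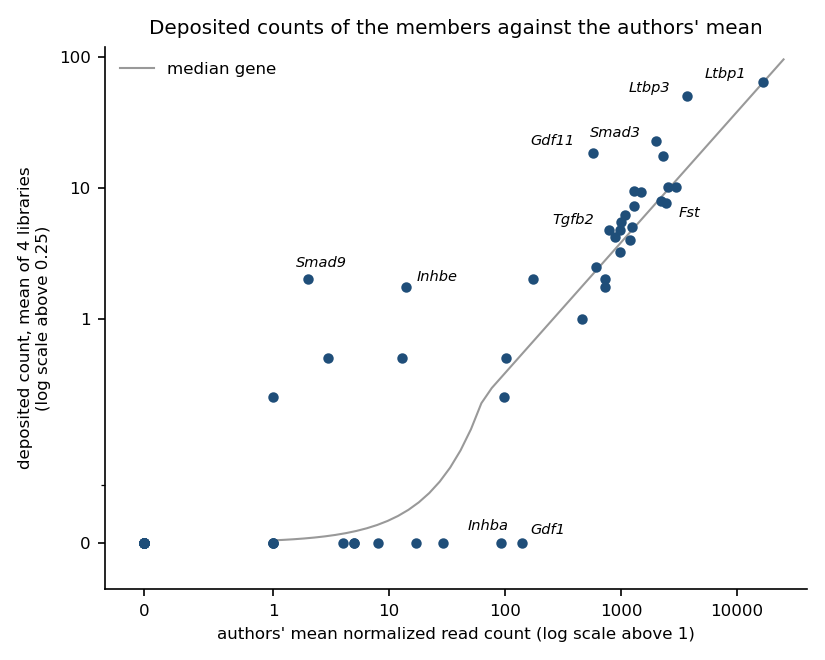
Deposited count per library, averaged over 4 libraries (y axis, logarithmic above 0.25), against the authors' mean normalized read count (x axis, logarithmic above 1) for each member listed in both, with a line at the ratio of the median gene. Ltbp1 and Fst lie near the line, and Gdf11, Inhbe and Smad9 lie far above it.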

How the data were processed

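Total RNA of 4 OLN93 cultures was sequenced by the authors as stranded mRNA libraries. Per the labels and the methods of the study, reads were mapped to the rat genome rn5 with STAR 2.5.1, and unique mappings were counted with HTSeq on Ensembl gene identifiers. The deposited counts are raw and listed per gene symbol. How identifiers became symbols and the strand option are not given in the sources used here. From the authors' table only the mean normalized read count was used, a score rounded by the authors to whole numbers and pooled over all libraries. Its fold changes and p-values are the authors' own comparison and were left out.

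The test was the quasi-likelihood F test of edgeR 4.0.16 (R 4.3.3), with the genotype as the sole term, TMM scaling and the filterByExpr filter. Standard errors came from the quasi-dispersion and the fitted information, and the test was checked on simulated counts. In that check, 42.7% of genes simulated with a 2-fold change were called by the unadjusted and 14.6% by the adjusted criterion. These shares were 98.8% and 76.8% for a 4-fold change, and 3.53% and 0.52% for unchanged genes. The 2-fold criterion was read with the unadjusted p of 0.05 and with the Benjamini-Hochberg adjusted p, since the study names no adjustment. The alternatives replaced edgeR by DESeq2 1.42.0 (no prior, or a prior), TMM by DESeq2 size factors or library totals, and the filter by none or by a minimum of 10 counts per library. Others added the replicate number as a block or dropped each library in turn. Exact binomial intervals came from scipy 1.17.1 in Python 3.11.15. Counts per library were given for members that were tested or had at least 10 counts in all, and other pathway genes were named where called or with at least 50 counts. Members and lists were chosen with earlier results of these data known. Smad1, Smad9, Inhbe, Zeb1, Junb, the Id genes and the neighbour of Gdf11 were named after their values were seen.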

Additional observations from a re-analysis of the deposited data

How the results depend on the processing

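With 2 shallow libraries a group, the members' calls rest on few counts, and the standard errors of their log2 fold changes ran from 0.29 to 0.95. The number of members called lower was 0 by both criteria and became 1 without the filter by both, which was Tgfb2. Members called higher by the unadjusted p were 2, but 3 without the filter, with Smad9 as the third, 1 with at least 10 counts in every library and 1 with a prior in DESeq2. After adjustment 0 were higher, but 1 with library totals alone and 1 without the filter. Leaving out 1 library, where the lone library of a group was assumed to vary like the other group, changed which members were called higher. Ltbp1 was under 2-fold without control 2 (log2 fold change 0.71) and without clone B (0.97), and Fst was called only with both clones present. By the unadjusted p, Tgfb1 entered the calls without clone A (log2 fold change 1.19) and Tgfbi without clone B (1.63). Where Tgfb2 entered the test, its log2 fold change was between -6.87 and -6.17. Leaving out members with an excess of counts, chosen after seeing the data, changed none of the numbers of members called with all libraries. The replicate block, with numbers that only name the libraries (correlation of deviations 0.12 over 2438 genes), called 2 members by the unadjusted p and 0 after adjustment, and lowered the number of all genes called after adjustment from 61 to 28 lower and from 27 to 11 higher. Over all genes by the unadjusted p, 170 lower and 113 higher became 329 and 295 without the filter, 42 and 31 with at least 10 counts in every library, 103 and 68 with DESeq2 without a prior and 96 and 63 with a prior. After adjustment the numbers were 8 and 9 with that minimum, 28 and 8 in DESeq2 without a prior, 30 and 8 with a prior, and 44 higher without the filter. With 1 library left out, the numbers after adjustment ran from 0 to 70 lower and from 0 to 39 higher, both 0 without control 2. DESeq2 called 0 of the other pathway genes higher after adjustment. The summed ratio of the BMP and GDF ligands was 0 without Gdf11, that of the type I receptors 1.60 without Acvr1 and that of the latent TGF-beta binding proteins 1.04 without Ltbp1. With 1 library left out, the ratio ran from 0.62 to 1.61 for Smad4 and from 0.77 to 3.83 for the inhibitory Smads, and the limit for Tgfb2 from 1.39 to 4.51. The causes were not tested. Of 104 values of single members under an alternative, 97 stayed on their side of the threshold, 5 lost the call and 2 gained it. Most of these values belong to members that were not called at the start. All 5 lost calls were those of Fst, with 10 alternatives, and Ltbp1, with 11.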
